A study of Mus musculus with 4 samples.

Results

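The 40 genes described here encode developmental transcription factors of the Pax, Lhx, Irx, Dlx, Nkx and Tbx families and of the sine oculis family (Six2, Six3, Six4 and Six6). They were taken from a fixed list of autosomal family genes that was named for CpG-island promoters, and they are 40 of the 21418 autosomal protein-coding genes of the annotation. The list holds 6 Pax, 8 Lhx, 4 sine oculis, 6 Irx, 6 Dlx, 5 Nkx and 5 Tbx genes. A further 28 genes of the same or closely related families were counted in the same way for comparison.

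RAD21 binding was measured by chromatin immunoprecipitation and sequencing (ChIP-seq) in R1/E cells, a line of mouse embryonic stem cells (ESCs), at differentiation day 0, and in embryoid bodies (EBs), aggregates grown from these ESCs, at differentiation day 12. In both cell types RAD21 carried a GFP tag and was expressed from a bacterial artificial chromosome (BAC) next to the untagged gene. Tagged cells were drug selected and sorted for GFP, and an antibody against GFP was used for the precipitation. Each cell type had 1 RAD21 library and 1 control library, labelled as a goat IgG isotype control. The autosomes held 13714772 ESC RAD21, 7740389 EB RAD21, 12602155 ESC IgG and 6929293 EB IgG reads. With 1 library per group no difference between the cell types could be tested, and the 95% intervals in parentheses cover counting error only. EBs are a mixture of cell types, and a binding change in a few cells cannot be told apart from a weaker change in all of them. Expression data were not analysed here, so neither the identity of the cells nor the activity of the genes was checked. The BAC was visible in each library as 4.97 to 5.20 times the median read number over the 100 kb around Rad21.

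RAD21 is a subunit of cohesin, a ring of proteins that holds sister chromatids together and extrudes loops of chromatin. Loops tend to stop where the insulator protein CTCF is bound, which is why cohesin is often found at CTCF motifs. Genes for developmental transcription factors typically have long CpG-rich promoters, lie in gene-poor surroundings with distant enhancers, and are kept silent by Polycomb proteins in pluripotent cells.

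The name of the list was first compared with the genome sequence. A start is the 5′ end of the gene record on the mm9 assembly. Within 500 bp of it, 31 of the 40 genes had a GC content of at least 50% and at least 0.6 of the CpG dinucleotides expected from base composition. The median GC content was 60.3% and the median ratio of observed to expected CpG was 0.692. For the 9656 annotated genes that met the same criterion these medians were 61.6% and 0.788. The 9 genes that missed the criterion were Lhx3, Lhx8, Lhx9, Dlx1, Nkx2-3, Pax5, Pax8, Tbx4 and Tbx15, with ratios from 0.221 at Pax8 to 0.635 at Dlx1, where the GC content of 44.6% fell short. Thus the label did not hold for every gene at the start of its gene record. The genes were also short, with a median body of 8581 bp against 25434 bp for the genes with a CpG-rich start.

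The sequence upstream of 2 starts is shown because the EB RAD21 library had no read within 1 kb of either. They are the 200 bp upstream of Irx4 on chr13:73397745-73397944 (plus strand), with 21 CpG dinucleotides, and of Nkx2-1 on chr12:57637896-57638095 (minus strand), with 7. CpG dinucleotides are in capitals, and both sequences are read from mm9 in the direction of transcription.
Irx4: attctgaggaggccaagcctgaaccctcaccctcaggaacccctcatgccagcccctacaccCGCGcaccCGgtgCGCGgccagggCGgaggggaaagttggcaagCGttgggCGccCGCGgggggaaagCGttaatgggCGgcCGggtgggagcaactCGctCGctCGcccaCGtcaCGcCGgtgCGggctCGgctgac
Nkx2-1: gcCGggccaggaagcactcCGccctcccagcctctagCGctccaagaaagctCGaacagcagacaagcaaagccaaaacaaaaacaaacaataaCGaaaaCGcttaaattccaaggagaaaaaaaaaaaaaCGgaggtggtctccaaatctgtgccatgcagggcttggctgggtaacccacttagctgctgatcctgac

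RAD21 sites were found near only a few of these starts. The authors listed sites with the peak caller MACS, whose score rises as the p-value of the site against IgG falls. A listed site overlapped the 1 kb on either side of the start for 2 of the 40 genes in ESCs, Dlx3 and Pax2, and for 1 in EBs, Dlx3. The background was 3.19% of all genes and 3.62% of genes with a CpG-rich start in ESCs, and 3.16% and 4.38% in EBs, so that 5.00% and 2.50% of the list did not stand apart at this number of genes. The intervals were 0.611 to 16.9% and 0.0633 to 13.2%.

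Dlx3, a homeobox gene of skin, teeth and placenta on chr11:94981403-94986610 (plus strand), had 2 listed sites next to each other upstream of its start, and both were shared by the cell types. The stronger one was centred 2917 bp upstream of the start on chr11:94977842-94978944, and the nearer one, on chr11:94979634-94980629, was centred 1351 bp upstream. The 201 bp around the ESC summit of the stronger site, chr11:94978386-94978586 (plus strand), are shown with the best match to the CTCF motif in capitals.
Dlx3 site: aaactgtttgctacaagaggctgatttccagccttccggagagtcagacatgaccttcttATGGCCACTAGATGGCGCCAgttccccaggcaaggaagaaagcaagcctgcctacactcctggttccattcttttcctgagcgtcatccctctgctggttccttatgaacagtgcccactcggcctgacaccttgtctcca
Pax2, a paired-box gene of kidney and midbrain on chr19:44830539-44912758 (plus strand), had a site on chr19:44828734-44829658, centred 1226 bp upstream of the start, that was listed in ESCs and not in EBs. The 201 bp around its summit, chr19:44829213-44829413 (plus strand), also hold a CTCF match, shown in capitals.
Pax2 site: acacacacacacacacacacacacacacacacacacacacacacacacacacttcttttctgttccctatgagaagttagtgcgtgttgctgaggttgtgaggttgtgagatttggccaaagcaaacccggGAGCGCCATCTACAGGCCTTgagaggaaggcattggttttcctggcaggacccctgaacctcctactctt
The stronger Dlx3 site held 58 ESC RAD21, 42 EB RAD21, 5 ESC IgG and 1 EB IgG reads within 250 bp of the summit. The nearer site held 40, 16, 3 and 1. The Pax2 site held 17 ESC and 5 EB RAD21 reads over 2 and 0 IgG reads, and its EB to ESC ratio of 0.521 had an interval from 0.150 to 1.47, so that a difference was not detectable at this depth although the site was in 1 list only.

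The starts carried few reads in every library. Within 1 kb of the start the genes had between 2 and 29 ESC RAD21 reads with a median of 10, and between 0 and 15 EB RAD21 reads with a median of 4. The IgG medians were 5 in ESCs and 2 in EBs. Levels are given as reads per 1000000 autosomal reads (RPM). In ESCs the 40 starts together had 436 RAD21 and 237 IgG reads, a ratio of RPM of 1.69 (1.44 to 1.99). In EBs they had 183 and 99, a ratio of 1.65 (1.29 to 2.14). The same ratios over all genes with a CpG-rich start were 1.44 and 1.86. Scaled to starts of like GC content in each library, the ratio was 1.25 (1.07 to 1.48) in ESCs and 0.976 (0.760 to 1.26) in EBs, so that in EBs no excess beyond that of starts of like GC content was detectable. In ESCs 36 of the 40 genes had a higher RPM in RAD21 than in IgG (90%, 76.3 to 97.2%), against 63.2% of all genes and 72.2% of genes with a CpG-rich start. In EBs 27 had (67.5%, 50.9 to 81.4%), which is near the 63.5% of all genes. The interval also includes the 77.4% of genes with a CpG-rich start.

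**Figure D1:**
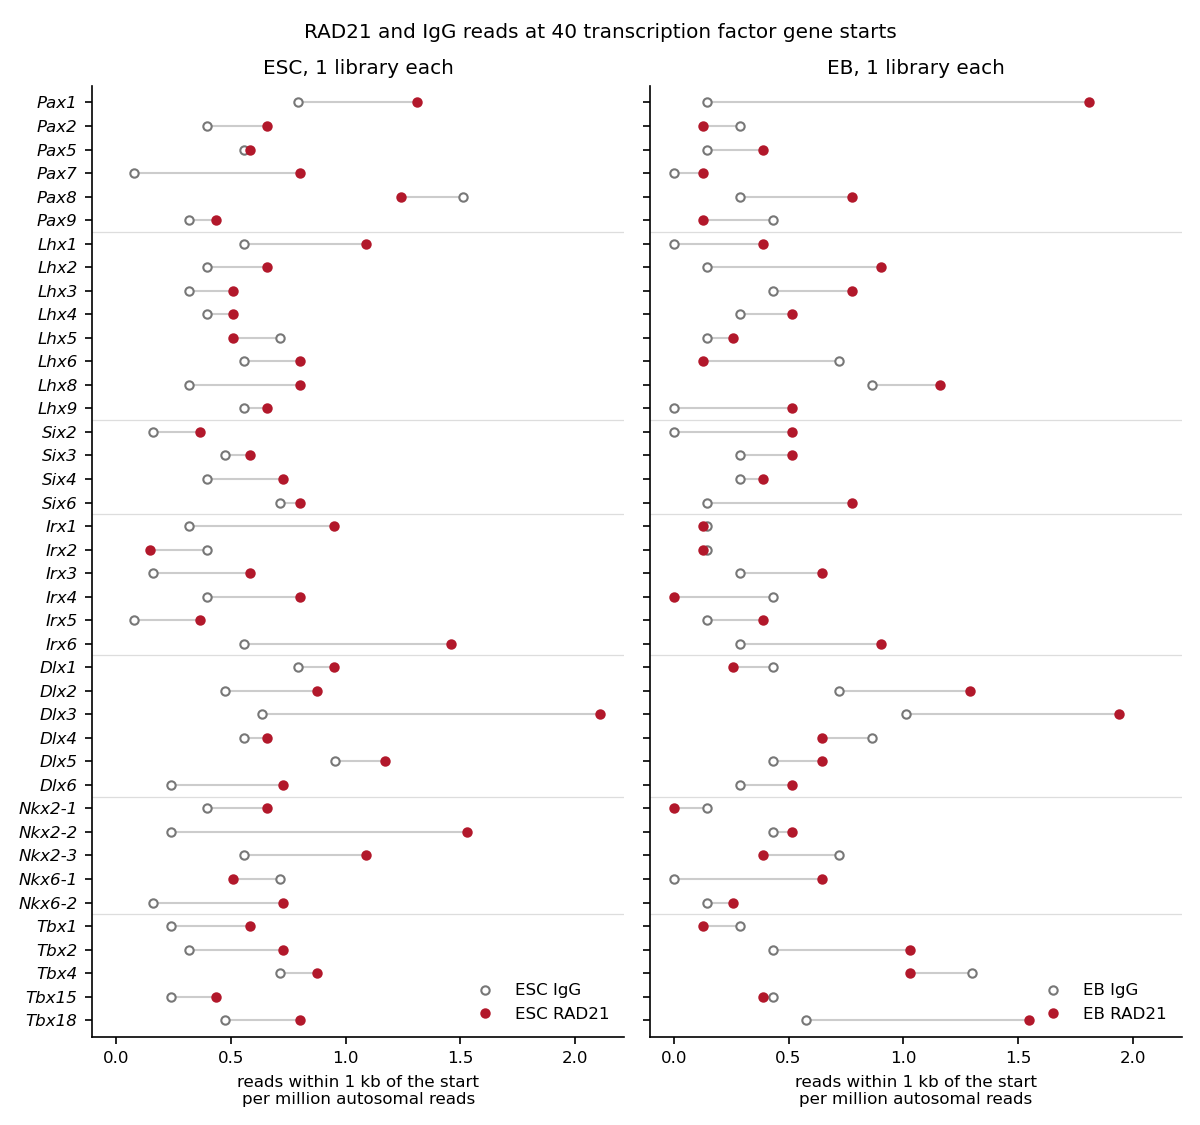
Reads within 1 kb of each of the 40 starts, in RPM (x axis), with filled points for RAD21 and open points for IgG in ESCs (left) and EBs (right), 1 library each and genes grouped by family. RAD21 lies above IgG at 36 starts in ESCs and at 27 in EBs, that is 90% and 67.5% against 72.2% and 77.4% of all CpG-rich starts. The EB interval of the 40 starts, 50.9 to 81.4%, includes the value of CpG-rich starts. Dlx3 has the highest ESC level, 2.11.

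A gene was counted as enriched when its RAD21 to IgG ratio, with 1 read added to each count, was at least 2. This held for 12 of the 40 genes in ESCs (30.0%, 16.6 to 46.5%) against 16.6% of all genes and 22.5% of genes with a CpG-rich start. In EBs it held for 11 (27.5%, 14.6 to 43.9%) against 25.6% and 36.7%. Both shares have intervals that include the background of CpG-rich starts, and with the scaling by GC content 5 genes passed in ESCs and 4 in EBs (12.5% and 10%). The background was then 8.9% of all genes and 9.78% of genes with a CpG-rich start in ESCs, and 12.7% and 12.3% in EBs. Irx6 and Tbx2 were enriched in both cell types by this count, which rests on few reads per gene. The share of all genes enriched in both was not counted, so that this overlap has no background here. The other family genes gave 5 of 28 in ESCs and 7 of 28 in EBs.

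With 1 read added to each count, the highest ESC ratios were at Pax7, Nkx2-2 and Nkx6-2, and the ratios given below are those without the added read. Pax7, which marks muscle satellite cells, had 11 ESC RAD21 reads over 1 ESC IgG read, a ratio of 10.1 (1.47 to 435), and 1 RAD21 and 0 IgG reads in EBs. Nkx2-2, a factor of the ventral spinal cord and pancreatic islets, had 21 over 3 reads in ESCs, a ratio of 6.43 (1.92 to 33.7), and 4 over 3 in EBs, a ratio of 1.19 (0.202 to 8.15). Nkx6-2, a factor of oligodendrocyte development, had 10 over 2 in ESCs (4.59, 0.979 to 43.1) and 2 over 1 in EBs (1.79, 0.0932 to 106). Irx5, an Iroquois gene, had 5 over 1 reads, which without the added read is the same 4.59 as at Nkx6-2. The intervals excluded 1 for Pax7 and Nkx2-2 and not for Nkx6-2. Dlx3, at 29 over 8 ESC reads (3.33, 1.49 to 8.43) and 15 over 7 EB reads (1.92, 0.736 to 5.56), was the gene with most reads in both RAD21 libraries.

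The lowest ESC ratios were at Irx2, Lhx5 and Nkx6-1. Irx2, an Iroquois gene of heart and neural patterning, had 2 RAD21 and 5 IgG reads in ESCs (0.368, 0.0350 to 2.25) and 1 of each in EBs. Lhx5, a LIM homeobox gene of the hippocampus, had 7 and 9 in ESCs (0.715, 0.226 to 2.16) and 2 and 1 in EBs. Nkx6-1, a factor of beta cells and motor neurons, had the same 7 and 9 in ESCs, but 5 RAD21 and 0 IgG reads in EBs. The interval of that EB ratio began at 0.82 and so included 1. None of these 3 differed from IgG in ESCs beyond counting error.

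In EBs the highest ratio with an interval above 1 was at Pax1, a gene of the sclerotome, with 14 RAD21 reads and 1 IgG read (12.5, 1.91 to 530). Its ESC counts were 18 and 10 (1.65, 0.724 to 4.01), so that the EB ratio came with a low IgG count. Six2, which maintains nephron progenitors, and Lhx9, a gene of gonad development, each had 4 EB RAD21 reads and 0 EB IgG reads. Their intervals began at 0.591 and so included 1. At the low end were Irx4, a gene of the heart ventricle, with 0 RAD21 and 3 IgG reads in EBs, and Lhx6, a gene of cortical interneurons, with 1 and 5 (0.179, 0.00379 to 1.60). Nkx2-1, a gene of thyroid, lung and forebrain, had 0 and 1, and Pax9, a gene of tooth and thymus development, had 1 and 3 (0.298, 0.00568 to 3.72). No EB library reading at these 4 starts lay outside the counting error of IgG.

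From ESCs to EBs the RAD21 reads at the starts went down, and the IgG reads went down by a similar factor. The summed EB to ESC ratio of RPM was 0.744 for RAD21 (0.622 to 0.886) and 0.760 for IgG (0.595 to 0.964). Scaled to the reads within 100 kb of each gene, an alternative chosen after seeing the data, the RAD21 ratio was 0.883 (0.738 to 1.05), so that a decline beyond that of the surroundings was not detectable. Relative to IgG the RAD21 ratio was thus 0.979, with an approximate interval of 0.732 to 1.31 from the 4 counts. Genes with a CpG-rich start gave 1.25 for RAD21, 0.967 for IgG and 1.29 for RAD21 relative to IgG (1.27 to 1.31). The other family genes gave 0.783, 0.588 and 1.33 (0.940 to 1.89). The lower RAD21 reads were thus seen at related genes too, and relative to IgG the interval of the 40 genes reached the value of CpG-rich starts. Scaled by GC content, genes with a CpG-rich start gave 1.16 for RAD21 and 1.01 relative to IgG. The 40 genes then gave 0.694 (0.58 to 0.826) and 0.774 (0.579 to 1.04).

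A lower RAD21 RPM in EBs than in ESCs was seen at 27 of the 40 genes (67.5%, 50.9 to 81.4%), against 48.8% of all genes and 38.4% of genes with a CpG-rich start. By the 2-fold count 12 genes were lower in EBs (30.0%, 16.6 to 46.5%), against 11.2% of all genes and 7.52% of genes with a CpG-rich start. None was 2-fold higher (0 of 40, up to 8.81%), against 13.1% and 19.2%. Within 500 bp of the start, where there were fewer reads, 6 genes were lower (15%, 5.71 to 29.8%), against 14.2% of all genes and 10.3% of genes with a CpG-rich start, so that the share of lower genes was then near the background. In that window 2 genes were higher (5%, 0.611 to 16.9%), against 16.9% and 22.2%. The 12 lower genes were Pax2, Pax7, Lhx1, Lhx6, Irx1, Irx4, Dlx1, Tbx1 and the Nkx genes Nkx2-1, Nkx2-2, Nkx2-3 and Nkx6-2. IgG moved with part of them. Its ratio, with 1 read added, was 0.227 at Lhx1 and 0.606 at Nkx2-1, while it was 1.21 at Irx4 and 1.82 at Nkx2-2, and its part in the result was not tested. By the same 2-fold count the IgG reads were lower at Pax1, Pax5, Pax8, Lhx1, Lhx5, Lhx9, Six6 and Nkx6-1, and higher at Lhx8. The share of all genes that IgG would pass was not counted. Among the other family genes 10 of 28 were lower and 3 of 28 higher.

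Irx4, Nkx2-1 and Irx1 had the lowest ratios and were the only genes whose own interval lay below 1. No allowance was made for reading 40 intervals, and the share of all genes with such an interval was not counted. Irx4, on chr13:73397945-73407068 (plus strand), went from 11 ESC reads to 0 EB reads, a ratio of 0 with an interval up to 0.706. Nkx2-1, on chr12:57632922-57637895 (minus strand), went from 9 to 0, with an interval up to 0.898. Irx1, an Iroquois gene like Irx4 on chr13:72095680-72101171 (minus strand), went from 13 to 1, a ratio of 0.136 (0.00321 to 0.907). Their IgG reads went from 5 to 3, from 5 to 1 and from 4 to 1, which are RPM ratios of 1.09, 0.364 and 0.455. All 3 IgG intervals included 1. In the 200 bp upstream, Irx4 and Irx1 had 21 and 20 CpG dinucleotides and Nkx2-1 had 7, within a range of 2 to 27 over the 40 genes, so that these 3 starts were not alike in CpG number.

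The highest EB to ESC ratios were at Tbx18, Lhx3 and Dlx2. Tbx18, a T-box gene of epicardium and sinus node, had 11 ESC and 12 EB reads (1.93, 0.781 to 4.83). Lhx3, a gene of pituitary and motor neurons, had 7 and 6 (1.52, 0.422 to 5.28), and Dlx2, a gene of forebrain interneurons, had 12 and 10 (1.48, 0.571 to 3.73). None of these intervals excluded equal levels. The IgG reads were 6 and 4 at Tbx18, 4 and 3 at Lhx3, and 6 and 5 at Dlx2, which are RPM ratios of 1.21, 1.36 and 1.52.

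The other 21 genes had from 5 to 20 ESC and from 1 to 9 EB RAD21 reads, and those named next were chosen after their values were seen. Irx6, an Iroquois gene, had the most in ESCs, 20 over 7 IgG reads (2.63, 1.07 to 7.35), and 7 over 2 in EBs. It was among the 4 genes whose ESC interval lay above 1, with Pax7, Dlx3 and Nkx2-2. The share of all genes with such an ESC interval was not counted. These 21 included Pax8, a gene of thyroid and kidney, where the IgG library had the most ESC reads of the 40 starts, 19 against 17 RAD21 reads, with 2 and 6 in EBs. Dlx5 had 16 and 5 RAD21 reads and 12 and 3 IgG reads, so that both libraries went down together. Lhx1, a gene of head and kidney development, went from 15 to 3 with IgG reads of 7 and 0. At the other end, 11 and 9 reads over 4 and 6 IgG reads at Lhx8 and 12 and 8 over 9 and 9 at Tbx4 gave EB to ESC ratios of 1.45 and 1.18. Tbx1, a gene of the pharyngeal arches, went from 8 reads to 1, with 3 and 2 IgG reads. All 21 intervals of the EB to ESC ratio included 1.

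**Figure D2:**
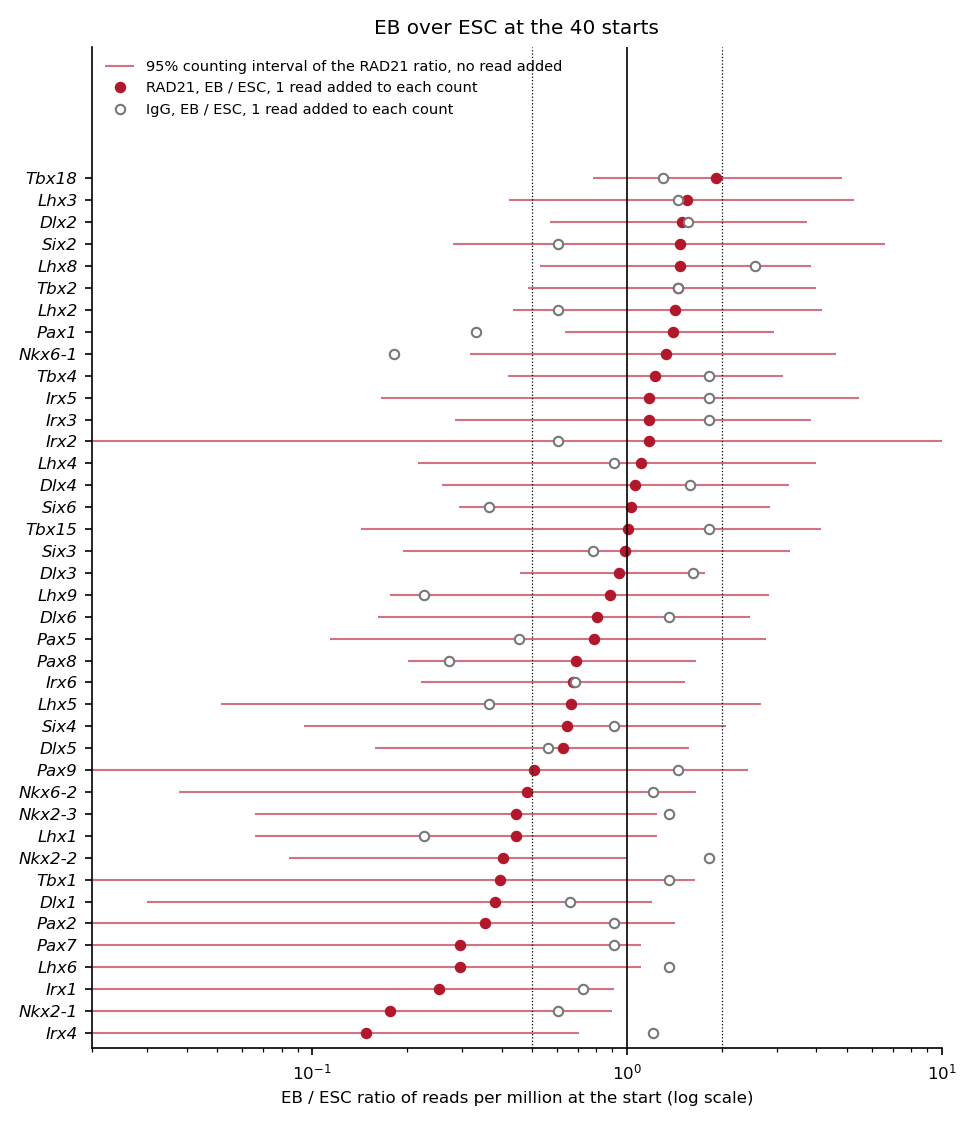
EB to ESC ratio of RPM at the 40 starts on a log axis, ordered by the RAD21 ratio, with filled points for RAD21, open points for IgG (both with 1 read added to each count) and lines for the 95% counting interval of the RAD21 ratio without added reads, drawn from 0.02 to 10 at most. At 12 genes RAD21 lies below the left dotted line at 0.5, at none above the right one at 2, and IgG scatters on both sides of 1.

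Between the families the interval of the Nkx genes lay below that of the Tbx genes, and all other intervals overlapped. Nkx genes had 62 ESC and 14 EB RAD21 reads in all, a ratio of 0.400 (0.207 to 0.723), and 26 and 10 IgG reads (0.699, 0.301 to 1.5). Irx genes had 59 and 17 (0.511, 0.279 to 0.888) with an IgG ratio of 0.758 (0.323 to 1.64). Pax genes had 69 and 26 (0.668, 0.408 to 1.06) with an IgG ratio of 0.356 (0.153 to 0.736). Dlx, Lhx and sine oculis genes had ratios of 0.816 (0.550 to 1.19), 0.839 (0.548 to 1.26) and 0.886 (0.464 to 1.63). Tbx genes had 47 and 32, the 1 ratio above 1 (1.21, 0.745 to 1.93), and their IgG ratio was 1.53 (0.813 to 2.84). Relative to IgG the Nkx ratio was 0.572 (0.225 to 1.45) and the Irx ratio 0.674 (0.270 to 1.68), so that neither decline exceeded the counting error of the control.

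The read density was then followed in 500 bp bins around the starts. Over genes with a CpG-rich start the EB RAD21 density reached 0.665 RPM per kb and gene in the bin centred 750 bp upstream and 0.663 in the bin 1250 bp downstream, with a dip to 0.238 in the bin 250 bp downstream. The ESC densities in these bins were 0.537, 0.465 and 0.229. The 40 genes had lower RAD21 densities in EBs than in ESCs in these bins, at 0.426, 0.381 and 0.194 against 0.558, 0.401 and 0.310. Their IgG densities did not follow the same course, at 0.346, 0.166 and 0.0722 in EBs against 0.329, 0.290 and 0.159 in ESCs. Relative to IgG, the EB to ESC ratio of the 40 genes in the bin 1250 bp downstream was 1.66 (0.942 to 2.92), an interval that includes both 1 and the 1.38 of CpG-rich starts (1.34 to 1.41). In the bin 750 bp upstream it was 0.727 (0.460 to 1.15) against 1.22 (1.19 to 1.26). The dip just past the start was present in the IgG libraries too, where it was deepest in the same bin. Upstream, in the bin centred at 1250 bp, the genes had 0.729 RPM in ESCs and 0.517 in EBs over IgG values of 0.361 and 0.231. Within 5 kb of the start, 5 of the 40 genes had a listed ESC site (12.5%, 4.19 to 26.8%), against 10.5% of all genes and 11.4% of genes with a CpG-rich start. An EB site was listed there for 4 (10%, 2.79 to 23.7%), against 8.25% and 10.3%, so that both shares were near the background.

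**Figure D3:**
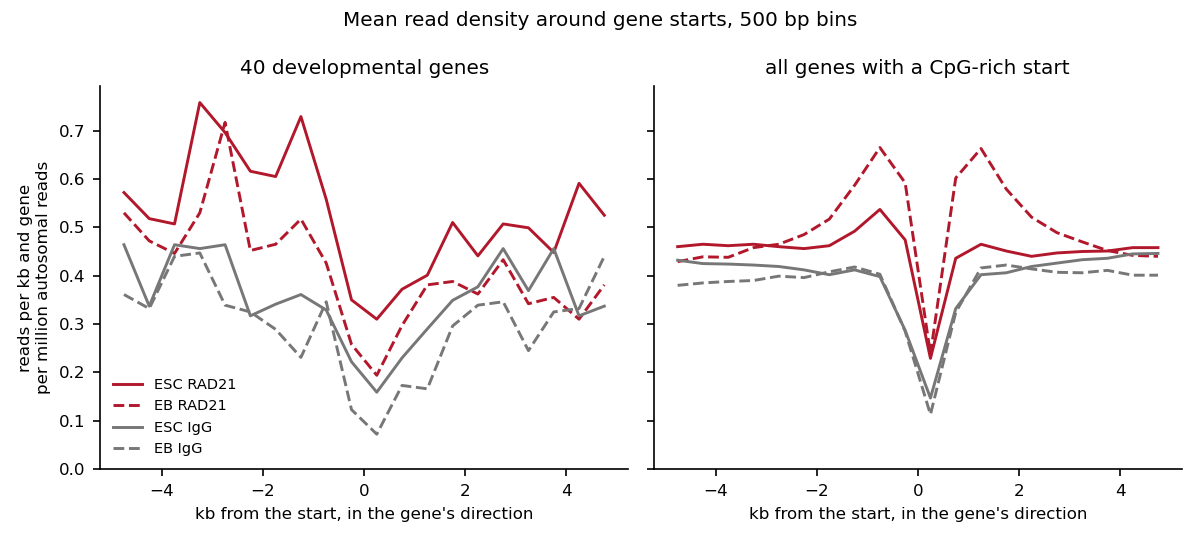
Mean read density in 500 bp bins within 5 kb of the start (x axis: kb from the start in the direction of the gene; y axis: RPM per kb and gene) for the 40 genes (left) and the 9656 genes with a CpG-rich start (right), with red lines for RAD21, grey for IgG, solid for ESC and dashed for EB. On the right EB RAD21 reaches 0.665 and 0.663 on the sides of the start, above ESC RAD21, while on the left it lies below ESC RAD21 in these bins and EB IgG is lower too in the downstream one.

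RAD21 sites were then counted in a wider window, within 100 kb of the gene bodies. A site lay within 100 kb of the gene body for 38 of the 40 genes in ESCs (95%, 83.1 to 99.4%), against 82.3% of all genes and 91% of genes with a CpG-rich start. In EBs this held for 30 genes (75.0%, 58.8 to 87.3%), against 73.6% and 82.1%. Irx1 and Irx5 had none in either cell type. The ESC libraries were deeper and more ESC sites were listed across the genome. The part of depth in that was not tested, and numbers of sites are compared here only with the genome. Counted once each, 87 ESC and 48 EB sites lay near the genes, a ratio of 1.81 (1.26 to 2.63), against 15085 and 10781 on all autosomes, a ratio of 1.4.

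ESC sites outnumbered EB sites at 29 of the 40 genes (72.5%, 56.1 to 85.4%), against 51.9% of all genes and 58.1% of genes with a CpG-rich start. EB sites outnumbered ESC sites at 3 genes, Pax8, Nkx2-1 and Nkx2-3 (7.5%, 1.57 to 20.4%), against 14.5% and 15.8%. At 8 genes an ESC site and no EB site was listed (20.0%, 9.05 to 35.6%), against 12.2% and 12.3%. They were Pax1, Pax5, Lhx2, Lhx4, Lhx5, Irx2, Irx3 and Irx4. The converse was seen at 0 of 40 (up to 8.81%), against 3.52% of both backgrounds. Neighbouring genes shared sites, so these counts are not independent. Among the other family genes, 14 of 28 had more ESC sites and 6 more EB sites.

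**Figure D4:**
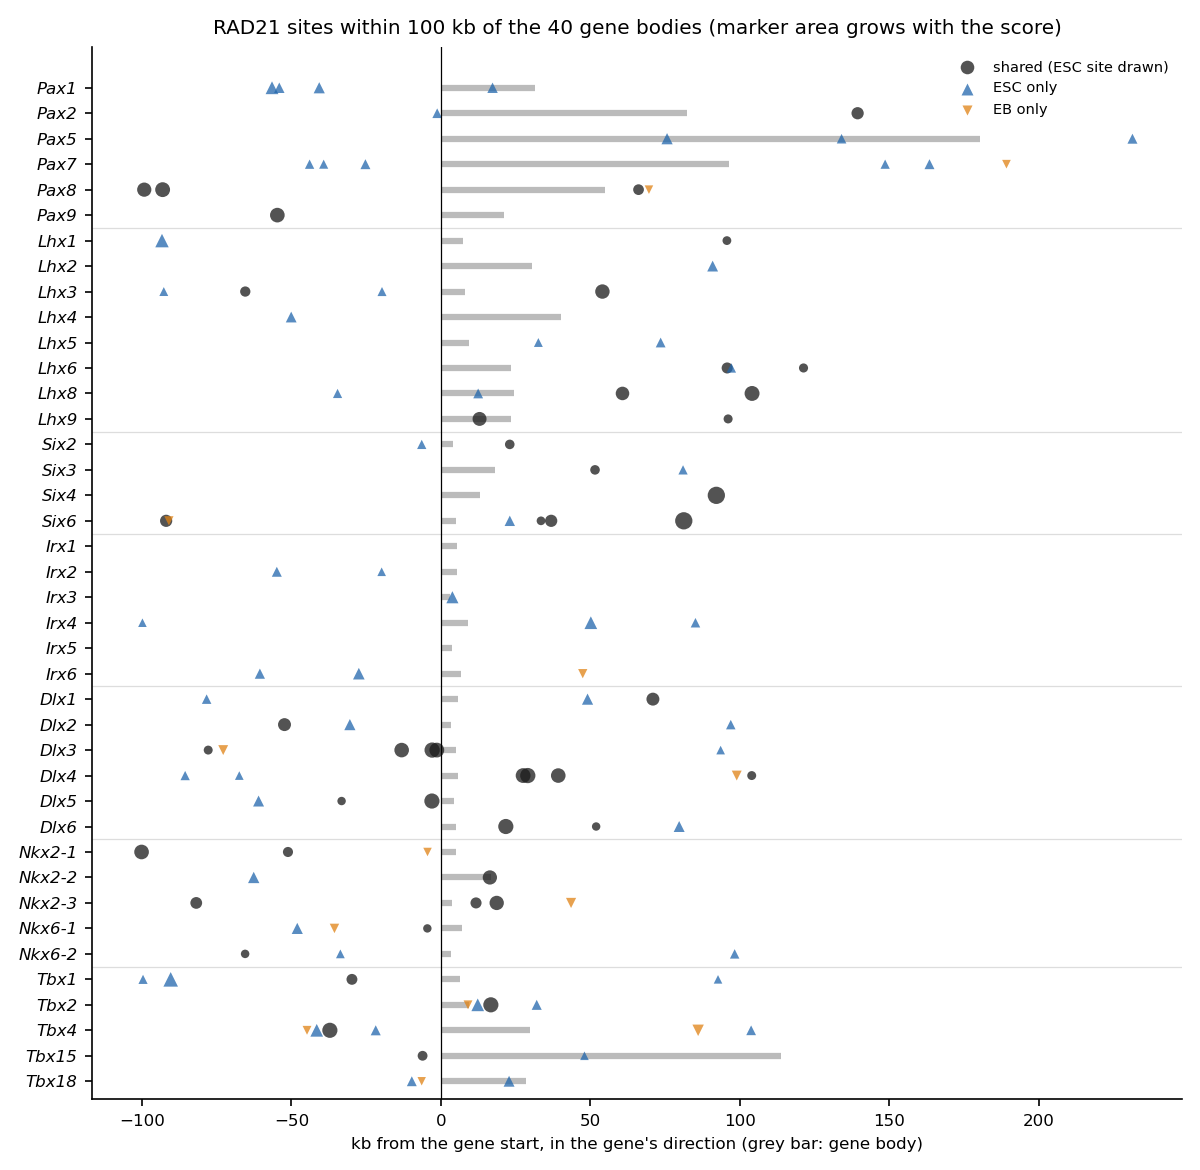
RAD21 sites within 100 kb of the 40 gene bodies by their distance from the gene start in kb (x axis, in the direction of the gene), with circles for sites shared by the cell types, upward triangles for ESC-only and downward triangles for EB-only sites, marker area growing with the peak score, and grey bars for gene bodies. A site near 2 genes is drawn in both rows. Irx genes show 8 ESC-only and 1 EB-only sites and no shared one, while Irx1 and Irx5 have none. Of all autosomal sites, 51.4% of the ESC list are ESC only and 31.7% of the EB list are EB only.

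Of the 87 ESC sites, 36 overlapped an EB site (41.4%, 30.9 to 52.4%), against 48.6% of all autosomal ESC sites, and 51 were ESC only. Of the 48 EB sites, 37 overlapped an ESC site (77.1%, 62.7 to 88.0%), against 68.3%, and 11 were EB only. The median distance between an ESC site and the nearest of the 40 starts was 54062 bp, and that of an EB site 52470 bp. These distances depend on the 100 kb window, and no background distance was counted. Of the ESC sites 48 lay upstream and 39 downstream of the nearest of the 40 starts, and 8 lay inside a body of the 40 genes. For 45 the nearest start of any protein-coding gene was one of the 40. Outside protein-coding genes were 77.0% of the ESC and 72.9% of the EB sites, compared with 58.9% and 57.4% of all autosomal sites. Introns held 19.5% of the ESC sites against 37.4%.

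A match to the CTCF motif lay within 150 bp of the summit at 72 of the 87 ESC sites (82.8%, 73.2 to 90.0%) and at 35 of the 48 EB sites (72.9%, 58.2 to 84.7%). The shares over all autosomal sites were 81.6% and 75.4%, and 2.94% of random windows had a match. The motif was found at 42 of the 51 ESC-only sites (82.4%), against 78.4% of all autosomal ESC-only sites. It was found at 30 of the 36 shared ESC sites (83.3%), against 85%. At EB-only sites it was found at 7 of 11 (63.6%, 30.8 to 89.1%), against 55.5%. The intervals for both lists near the 40 genes included the share of all autosomal sites.

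At shared sites the 1153 ESC and 699 EB reads gave a summed EB to ESC ratio of RPM of 1.07 (0.976 to 1.18), against 1.31 over all shared autosomal sites (1.30 to 1.32). At ESC-only sites, which were listed for their ESC reads, the ratio was 0.370 (0.320 to 0.425) against 0.436 (0.431 to 0.441). At EB-only sites it was 2.42 (1.88 to 3.12) against 2.85 (2.81 to 2.89). All 3 values lay below those of all sites, and for shared and ESC-only sites the intervals did not meet. Without chromosomes 6, 8 and 11, where the IgG libraries differed, this held for shared sites, at 1.09 (0.980 to 1.22) against 1.36 (1.35 to 1.37). It was lost for ESC-only sites, at 0.386 (0.329 to 0.450) against 0.447 (0.442 to 0.453). Reads within 100 kb of the 40 bodies but outside starts and sites had a lower EB to ESC ratio as well, 0.848 for RAD21 and 0.851 for IgG against 0.909 and 0.902 around all genes. The part of this regional difference in the site ratios was not tested.

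**Figure D5:**
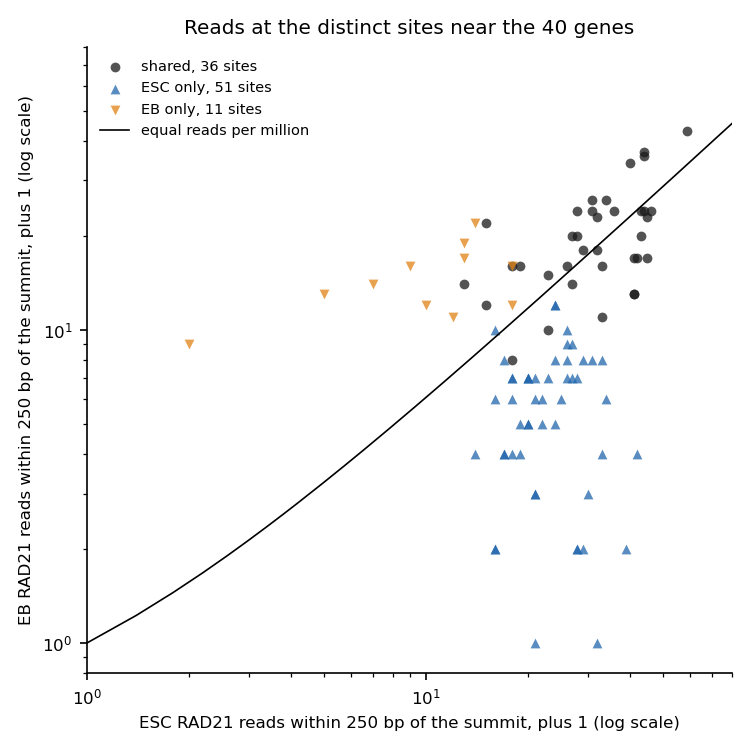
ESC (x axis) and EB (y axis) RAD21 reads within 250 bp of the summit, plus 1, on log axes, for the 36 shared, 51 ESC-only and 11 EB-only sites near the 40 genes, with a line at equal RPM. Shared sites lie around the line, ESC-only sites mostly below it and EB-only sites above it, the lists having been chosen by these reads.

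Irx genes, which form 1 cluster of Irx1, Irx2 and Irx4 on chromosome 13 and another of Irx3, Irx5 and Irx6 on chromosome 8, had 8 ESC sites and 1 EB site with none shared. Of all autosomal ESC sites 51.4% were ESC only, and of all EB sites 31.7% were EB only. The ESC sites of Irx genes held 198 ESC and 28 EB reads, a ratio of 0.251 (0.162 to 0.373). All autosomal ESC-only sites gave 0.436. Nkx genes had 12 ESC and 11 EB sites with 8 of the ESC sites shared, and a ratio of 1.12 at the ESC sites (0.927 to 1.34). The ratio was 0.609 at the 18 ESC sites of Pax genes (0.508 to 0.726), 0.858 at the 19 of Lhx genes (0.732 to 1.00) and 0.831 at the 7 of sine oculis genes (0.639 to 1.07). It was 0.778 at the 12 of Dlx genes (0.640 to 0.942) and 0.526 at the 12 of Tbx genes (0.411 to 0.668). All ESC sites on the autosomes gave 0.926, and since ESC sites were selected for ESC reads, the order of the families is a description.

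Chromosomes 6, 8 and 11, which hold 10 of the 40 genes, had more reads in ESCs than EBs in the IgG libraries, at ratios of 1.19, 1.23 and 1.14, against 0.911 to 1.04 on the other autosomes. Without them the ratio of ESC to EB sites was 1.92 (1.26 to 2.95) against 1.33 for all autosomal sites, and the summed EB to ESC ratio at the starts was 0.704 (0.565 to 0.873) for RAD21 and 1.07 relative to IgG (0.75 to 1.53).

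The strongest sites were shared by both cell types. The 20 bases of the best CTCF match are given for those of highest score and for those that differed most, since the motif is the feature most of them have in common, each read in the orientation of the motif with its 12 base core in capitals.
Six6 and Six4 site, chr12:74122106-74122125 (plus strand): gtatCCAGCAGGGGGCactc
Dlx5 and Dlx6 site, chr6:6835122-6835141 (minus strand): gcggACACTGGGTGGCgctc
Lhx9 site, chr1:140732101-140732120 (plus strand): gagaCCACTAGGGGTCagta
Lhx8 site, chr3:153889540-153889559 (minus strand): gtacCCAGAAGGTGGAgcca
Irx3 site, chr8:94321605-94321624 (plus strand): tcgtCCTGTAGAGGGAgctc
Irx4 site, chr13:73483098-73483117 (plus strand): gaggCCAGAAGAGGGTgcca

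The highest ESC score, 365.01, belonged to a site outside protein-coding genes on chr12:74121471-74122772. It lay 81288 bp downstream of the start of Six6, a gene of eye and pituitary, between Six6 and Six4, a gene of muscle development. It held 39 ESC RAD21, 33 EB RAD21, 2 ESC IgG and 4 EB IgG reads (EB to ESC 1.5, 0.914 to 2.45). The Dlx3 site 2917 bp upstream had the next ESC score, 274.05, and the highest EB score, 385.86, with an EB to ESC ratio of 1.28 (0.841 to 1.94). The site upstream of Dlx5 on chr6:6834509-6835688, in the pair of Dlx5 and Dlx6, which act in jaw and limb development, had an ESC score of 270.57 and held 44 ESC and 16 EB RAD21 reads over 4 and 1 IgG reads (0.644, 0.339 to 1.16). None of these sites differed between the cell types beyond counting error.

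Among EB sites, a site in an intron of Lhx9 on chr1:140731324-140732723 had a score of 251.81 and held 40 ESC and 33 EB RAD21 reads over 3 and 2 IgG reads (1.46, 0.893 to 2.38). A site in an intron of Slc44a5 on chr3:153888939-153890001, 104145 bp downstream of the start of Lhx8, a gene of cholinergic neurons and oocytes, had a score of 229.35 and held 43 and 36 over 0 and 3 reads (1.48, 0.926 to 2.36). Both were listed in ESCs as well.

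The ESC-only sites with the lowest EB to ESC ratios were near Irx3, Tbx4 and Irx4. The Irx3 site, on chr8:94321151-94322180, lay 3862 bp downstream of the start and just past the annotated end of this gene of limb and neural patterning. It held 31 ESC RAD21 reads and 0 EB RAD21 reads over 4 and 1 IgG reads, at least 4.47-fold lower in EBs by the exact interval. The Tbx4 site, on chr11:85803182-85804133, lay 103825 bp downstream of the start of this gene of hindlimb and lung and had no CTCF match. It held 20 and 0 RAD21 reads over 4 and 0 IgG reads, at least 2.79-fold lower by the exact interval. The Irx4 site, on chr13:73482680-73483693, lay 85199 bp downstream, and held 38 ESC RAD21 reads and 1 EB RAD21 read over 8 and 1 IgG reads, an EB to ESC ratio of 0.0466 (0.00115 to 0.276). These sites were picked as the extremes of 51, and the lists had selected them for their ESC reads.

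The EB-only sites with the highest ratios held few reads and no CTCF match. A site 6411 bp upstream of Tbx18, on chr9:87632352-87632913, held 1 ESC and 8 EB RAD21 reads over 3 and 3 IgG reads (14.2, 1.90 to 629). A site in an exon of Tbx2, a T-box gene of the heart, on chr11:85654707-85655322, held 4 and 12 over 8 and 0 (5.32, 1.61 to 22.6). A site 47480 bp downstream of the start of Irx6, on chr8:95245192-95245967, held 6 and 13 over 2 and 0 (3.84, 1.36 to 12.3). Their scores of 50.62, 61.07 and 70.42 were near the lower end of the list, and the EB IgG count was 0 at the Tbx2 and Irx6 sites.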

How the data were processed

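Aligned reads of 4 libraries and 2 lists of RAD21 sites were used, on mm9 with the GENCODE vM1 annotation. The deposited read files give 1 position and strand per aligned read, which the authors aligned to mm9 in reads of 35 bases, and the aligner was not given in the sources used here. No library held repeated positions on the same strand. In 2 IgG files 7 lines and 1 line were broken and left out, and the EB IgG file ends on chromosome X, so autosomes alone were used. The site lists were made by the authors with MACS, whose deposited score is -10 times the log10 of the p-value, and whose deposited signal column is the height of the pile of reads. They were called once per cell type against the control. The study's methods describe the controls also as input DNA, and the labels as goat IgG.

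Reads were moved to the fragment centre, by a distance taken from the shift between strands around listed summits (fragments of 206 bp in ESCs and 198 bp in EBs), counted within 1 kb of the start or 250 bp of a summit, and divided by autosomal reads. A 2-fold count used 1 added read on each side. Ratios of 2 counts have exact conditional 95% intervals, also where a count is 0, and shares have exact Clopper-Pearson ones. Intervals relative to IgG are approximate, from the log ratio of 4 counts. Sites within 100 kb of a gene body were assigned to it, and an overlap of 1 bp made sites shared. The CTCF matrix was learned from ESC sites of odd-numbered chromosomes for use on even-numbered ones, and conversely, and a match occurs at 1e-04 of random positions. Named genes were those with a site at the start and the 3 highest and lowest ratios, with ties, and sites in full were chosen by score, ratio and position at a start. Members and lists were chosen with earlier results of these data known. The counting code was tested on simulated data. Analyses used Python 3.11.15, numpy 2.4.6, scipy 1.17.1, pandas 2.3.3 and matplotlib 3.10.9. Alternatives were a 500 bp window, reads not moved, other scalings, other distances, a score of at least 100 and a stricter motif.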

Additional observations from a re-analysis of the deposited data

How the results depend on the processing

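No paired analysis was possible because each group has 1 library and the result comes from no test. Of 96 comparisons over 21 results, 71 stayed within the counting error or within 1.5 times the count, 24 moved and 1 reversed, and where no construction shows it the cause was not tested. Scaling by GC content sets each library against starts of like GC content, so that a ratio of 1 means a typical start. It gave RAD21 to IgG ratios of 1.25 in ESCs and 0.976 (0.760 to 1.26) in EBs. The EB value was the one reversal, and its interval included 1. With this scaling 5 and 4 genes were past 2-fold, and 1 gene was higher in EBs. A 500 bp window gave an EB to IgG ratio of 2.32, a change relative to IgG of 1.34, 2 genes higher and 6 lower in EBs. Without moving reads 2 genes were higher in EBs. Within 5 kb, 5 ESC and 4 EB starts had a site. With scores of at least 100, 1 start had an ESC site and 17 genes had an EB site within 100 kb. At this score 43 ESC and 21 EB sites were counted, and 55.8% of ESC sites were shared. The shares over all genes and sites at this score were not counted. Within 50 kb there were 46 ESC and 26 EB sites, 19 of the ESC sites shared. Scaling to a median ratio of 1 at shared sites gave EB to ESC ratios of 0.823 where sites were shared, 0.283 for those of ESCs alone and 1.85 for those of EBs alone. The stricter motif was at 25.3% of ESC and 18.8% of EB sites. Among alternatives chosen after seeing the data, scaling by the reads around the genes gave an EB to ESC ratio of 0.883 (0.738 to 1.05) for the starts, whose interval then included 1, and leaving out the 9 starts that are not CpG-rich gave 0.729. Depth limits single genes, most of which have under 15 reads.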
